A study of Mus musculus with 25 samples.

Results

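The potassium channel genes described here were the genes on chromosomes 1 to 19 whose symbol begins with Kcn, without Kcnq1 and Kcnq1ot1, and to which at least 1 peak of H3K27me3 (a trimethylated lysine in the tail of histone H3) was assigned in regenerating mouse myofibers. They numbered 54 of the 5470 genes with an autosomal H3K27me3 peak, and held 301 of 30979 autosomal peaks. RefSeq lists 94 autosomal Kcn genes under the same rule, so 40 had no assigned peak in any of 12 peak lists. The lists give each peak its nearest gene, and that assignment, not the gene's activity, set the membership.

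Potassium channels let potassium leave or enter a cell down its gradient. They set the resting potential, end action potentials and, in muscle fibers, keep the surface membrane quiet between contractions. The voltage-gated groups (such as Kv1, Kv3, Kv4 and the ether-a-go-go channels) open on depolarization, the inward rectifiers (Kcnj) hold the membrane near rest, the 2-pore channels (Kcnk) carry leak current, and calcium- or sodium-activated channels (Kcnma, Kcnn and Kcnt) answer to those ions. Accessory subunits (Kcne, Kcnip, Kcnmb, Kcnab) and silent subunits (Kcng, Kcns, Kcnv) make no channel alone and alter the channels they join. H3K27me3 is placed by Polycomb complexes, mostly around CpG-rich start sites, and is known as a mark of genes that a lineage keeps off, among them many neuronal genes in muscle.

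All mice carried the mito-Dendra2 allele, a fluorescent protein sent to mitochondria, switched on by the Pax7-Cre(ERT2) driver, which recombines in muscle stem cells, so that labelled myofibers descend from those cells. Wild-type mice had no further recombined allele named, mfn2-/- mice lost Mfn2 (a mitochondrial fusion protein), vhl-/- mice lost Vhl (the part of a ubiquitin ligase that recognizes HIF1α), and HIF1dPA mice expressed a proline-to-alanine HIF1α that VHL does not recognize. Every group received tamoxifen at 75 mg/kg on 5 days, was injured 2 days later with 50 µL of 1.2% BaCl2 in the tibialis anterior, and gave Dendra2+ myofibers 14 days after injury. H3K27me3 was profiled in 3 replicates of each of the 4 genotypes, and H3K9me3, a mark of constitutively silent chromatin, in a further 12 libraries. The comparison of genotypes asks where repressive marks lie when HIF1α is in excess, by loss of Mfn2 or Vhl or by a stable HIF1α. The labels give neither sex nor age. The study describes the ChIP-seq replicates as biological replicates from separate mice, and the labels do not say which library came from which mouse.

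The lists differed in length before any gene was chosen. Autosomal H3K27me3 peaks numbered 3427 to 3763 in wild-type, 2342 to 2574 in mfn2-/-, 3626 to 4023 in vhl-/- and 474 to 496 in HIF1dPA libraries. Read totals were not given in the sources used here, so depth is unknown and cannot be told apart from genotype. No peak was assigned to any of 18 myofiber genes (such as Acta1 and Ckm) or 4 Schwann cell genes in any list. Of 4 muscle stem cell genes 3 had a peak, Calcr in 8 lists, Pax7 in 5 and Myf5 in 1. Endothelium, fibro-adipogenic cells and macrophages each had 1 of 5 genes with a peak (Tek in 1 list, Pdgfra in 9 and Ptprc in 1). Peak lists cannot separate the share of nuclei that carry a mark from the amount of mark in each.

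Promoter windows were read for the genes on which the account turns. Each window runs from 250 bases before to 50 bases after a RefSeq start, 5′ to 3′ on the gene's strand, in GRCm38.p6, which has the coordinates of mm10. Of the 54 genes, 41 had a window in the table, some more than 1. The capitals mark CG dinucleotides, the feature that Polycomb-marked start sites share. Shown first are 5 genes, chosen after their values were seen, whose windows differ in CG content and in how often a peak lies on them, namely Kcnmb4os2 (chr10:116472913-116473212, plus strand), Kcnmb4 (chr10:116473474-116473773, minus strand), Kcnk13 (chr12:99964249-99964548, plus strand), Kcng3 (chr17:83631846-83632145, minus strand) and Kcns1 (chr2:164171064-164171363, minus strand). The last pair, Kcnj2 (chr11:111065914-111066213, plus strand) and Kcna7 (chr7:45405710-45406009, plus strand), are muscle channels with no listed peak.
Kcnmb4os2: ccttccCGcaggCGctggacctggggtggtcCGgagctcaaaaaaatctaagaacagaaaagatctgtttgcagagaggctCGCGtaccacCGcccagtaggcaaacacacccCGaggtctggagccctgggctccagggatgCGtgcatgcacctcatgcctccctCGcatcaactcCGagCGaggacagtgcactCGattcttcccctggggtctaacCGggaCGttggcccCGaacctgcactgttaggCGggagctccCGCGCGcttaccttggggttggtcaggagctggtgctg
Kcnmb4: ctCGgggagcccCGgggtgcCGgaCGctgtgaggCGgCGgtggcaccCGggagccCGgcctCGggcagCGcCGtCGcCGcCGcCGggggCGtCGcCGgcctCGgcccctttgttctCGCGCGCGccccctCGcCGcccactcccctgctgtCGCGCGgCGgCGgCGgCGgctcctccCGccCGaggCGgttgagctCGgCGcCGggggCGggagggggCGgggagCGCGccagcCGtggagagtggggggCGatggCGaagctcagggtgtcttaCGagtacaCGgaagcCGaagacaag
Kcnk13: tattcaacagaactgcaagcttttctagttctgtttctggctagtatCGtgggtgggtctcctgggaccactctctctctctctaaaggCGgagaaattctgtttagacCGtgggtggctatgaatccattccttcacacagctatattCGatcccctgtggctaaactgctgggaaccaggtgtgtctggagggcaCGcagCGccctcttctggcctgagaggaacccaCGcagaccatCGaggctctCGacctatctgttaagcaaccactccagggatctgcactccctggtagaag
Kcng3: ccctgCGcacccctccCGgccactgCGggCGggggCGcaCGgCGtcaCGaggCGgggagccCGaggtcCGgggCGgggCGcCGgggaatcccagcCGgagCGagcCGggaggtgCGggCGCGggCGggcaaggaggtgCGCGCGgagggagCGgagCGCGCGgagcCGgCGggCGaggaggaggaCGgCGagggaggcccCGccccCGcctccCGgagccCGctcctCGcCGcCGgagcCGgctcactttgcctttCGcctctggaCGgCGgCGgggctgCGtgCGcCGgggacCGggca
Kcns1: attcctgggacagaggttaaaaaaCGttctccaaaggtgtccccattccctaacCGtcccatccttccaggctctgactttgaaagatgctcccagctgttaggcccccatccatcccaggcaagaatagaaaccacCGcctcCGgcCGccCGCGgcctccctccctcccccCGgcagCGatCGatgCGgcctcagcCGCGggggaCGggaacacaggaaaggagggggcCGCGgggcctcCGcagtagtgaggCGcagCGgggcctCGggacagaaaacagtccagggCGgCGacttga
Kcnj2: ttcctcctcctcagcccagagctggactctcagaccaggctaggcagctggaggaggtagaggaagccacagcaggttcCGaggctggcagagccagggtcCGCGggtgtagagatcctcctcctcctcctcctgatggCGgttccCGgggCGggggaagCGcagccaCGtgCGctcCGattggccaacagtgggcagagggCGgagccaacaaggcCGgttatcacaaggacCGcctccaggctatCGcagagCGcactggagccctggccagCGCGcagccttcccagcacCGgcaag
Kcna7: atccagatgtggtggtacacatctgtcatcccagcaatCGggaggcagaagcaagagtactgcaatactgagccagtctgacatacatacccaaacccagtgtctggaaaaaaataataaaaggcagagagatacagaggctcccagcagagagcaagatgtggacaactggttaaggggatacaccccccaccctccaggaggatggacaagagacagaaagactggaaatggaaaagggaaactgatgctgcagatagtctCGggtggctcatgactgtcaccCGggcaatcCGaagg

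These windows held 19 CG dinucleotides for Kcnmb4os2, 48 for Kcnmb4, 9 for Kcnk13, 49 for Kcng3, 22 for Kcns1, 18 for Kcnj2 and 4 for Kcna7. A peak lay on the Kcnmb4os2 window in 6 lists, on the Kcnmb4 window in 5 (under the name Kcnmb4os2), on the Kcns1 window in 4 and on the Kcnk13 window in 3. No peak touched the Kcng3 window, the most CG-rich of the 7, although 6 lists had a peak within 3 kb after its start. Over all Kcn windows, the 25 under a peak had a median of 17 CG dinucleotides (3 to 48), the 34 of marked genes without a peak on the window had 9 (1 to 49), and the 36 of unmarked genes had 7 (0 to 41), as did all 31396 autosomal windows. The median was highest where a peak lay on the window, and the ranges overlapped almost fully. Kcnj2 shows that a CG-rich start was not always listed.

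A few motifs were counted on both strands of the same windows. The hypoxia response core ACGTG occurred in 0 of 25 windows under a peak (0%), in 14.7% of the 34 others of marked genes, in 30.6% of the 36 windows of unmarked genes, Kcnj2 among them, and in 19.7% of all autosomal windows. The variant GCGTG occurred in 40%, 32.4%, 30.6% and 32.8% of the same sets. The E-box CANNTG, which can overlap ACGTG, occurred in 64%, 76.5%, 75% and 72.2%. The REST motif parts CAGCACC and GGACAG occurred in 8% and 20% of windows under a peak, against 7.24% and 22.4% of all windows. These counts are few, describe letters and not bound sites, and were not tested.

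Fewer Kcn genes were listed in mfn2-/- and HIF1dPA libraries than in wild-type, and vhl-/- libraries listed about as many. Wild-type lists held 28, 23 and 26 Kcn genes, mfn2-/- lists 14, 14 and 17, vhl-/- lists 29, 27 and 27, and HIF1dPA lists 5, 4 and 8. Every mfn2-/- list was below every wild-type list and every HIF1dPA list below every mfn2-/- list, while vhl-/- overlapped wild-type. The means were 25.7 ± 2.52 (SD, n = 3), 15 ± 1.73, 27.7 ± 1.15 and 5.67 ± 2.08 genes. The number differed across the 4 genotypes by an exact permutation test over the 12 libraries (p = 0.000260, adjusted p = 0.00117 over 9 tests). It also differed without the HIF1dPA lists (exact permutation p = 0.0143, unadjusted). The 3 mutant genotypes together differed from wild-type by -9.56 genes on average, which was not past the threshold (exact two-sided permutation p = 0.141, adjusted p = 0.211).

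Single pairs of genotypes could not pass the threshold, since 3 against 3 libraries give no exact p below 0.1. The difference from wild-type was -10.7 genes in mfn2-/- (exact permutation p = 0.1), 2 genes in vhl-/- (exact permutation p = 0.400) and -20 genes in HIF1dPA (exact permutation p = 0.1). The base pairs under Kcn peaks gave the same order. Wild-type lists covered 30023, 31223 and 29372 bp, mfn2-/- lists 11407, 11029 and 16221 bp, vhl-/- lists 40968, 35817 and 26799 bp, and HIF1dPA lists 3175, 2404 and 4949 bp. Covered length differed across genotypes on the log2 scale (exact permutation p = 0.000260, adjusted p = 0.00117), and the vhl-/- values reached on both sides of wild-type.

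Set against the length of the lists, the Kcn share was lower in mfn2-/- than in wild-type when peaks were counted and less so when genes were. Kcn genes made up 1.38%, 1.21% and 1.39% of listed genes in wild-type, 1.07%, 1.14% and 1.24% in mfn2-/-, 1.47%, 1.31% and 1.44% in vhl-/-, and 1.18%, 0.941% and 1.86% in HIF1dPA libraries. The gene share showed no difference past the threshold across genotypes (exact permutation p = 0.679, adjusted p = 0.764), and the 3 HIF1dPA values alone spanned the rest. Without them the exact permutation p was 0.05. Relative to wild-type, mfn2-/- lists held 0.584 times as many Kcn genes and 0.675 times as many genes of any kind, and HIF1dPA lists 0.221 and 0.220 times.

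Counted by peaks, the Kcn share of autosomal peaks was 1.09%, 1.11% and 1.05% in wild-type, 0.733%, 0.683% and 0.738% in mfn2-/-, 1.19%, 0.920% and 0.910% in vhl-/- and 1.05%, 0.811% and 1.61% in HIF1dPA libraries. The mfn2-/- values lay below all others, and the remaining genotypes overlapped. Mean shares were 1.08 ± 0.0289% in wild-type and 0.718 ± 0.0304% in mfn2-/- (SD, n = 3). Kcn peaks were 0.461 times as many in mfn2-/- as in wild-type, while all autosomal peaks were 0.694 times as many. Across the 4 genotypes the peak share did not pass the threshold (exact permutation p = 0.155), and without the HIF1dPA lists it did (exact permutation p = 0.0143, unadjusted). The peak share was tested after its values were seen.

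Cutting every list to its 474 strongest peaks, the length of the shortest, turned the order. Wild-type lists then held 1, 3 and 4 Kcn genes, mfn2-/- lists 1, 1 and 3, vhl-/- lists 4, 3 and 2, and HIF1dPA lists 5, 4 and 8 (exact permutation p = 0.0445 across genotypes). The HIF1dPA lists were then highest, with 5.67 ± 2.08 genes against 2.67 ± 1.53 in wild-type. The cut left these lists, of 474 to 496 peaks, almost whole, and shortened all others from 2342 peaks or more. Weak HIF1dPA peaks were thus set against only the strongest peaks of the other genotypes. The direction of the HIF1dPA difference thus changed with the list length used, and list length and genotype cannot be told apart here. At a score of at least 100, HIF1dPA lists held no Kcn gene. Wild-type lists then held 1, 3 and 6, mfn2-/- lists 1, 1 and 3, and vhl-/- lists 6, 6 and 4. In HIF1dPA replicate 3 a score of 75.4 already ranked 55 of 496 peaks, so few peaks of any gene could reach 100 there. The absence of Kcn genes at that score thus cannot be told apart from a shortage of strong peaks.

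**Figure D1:**
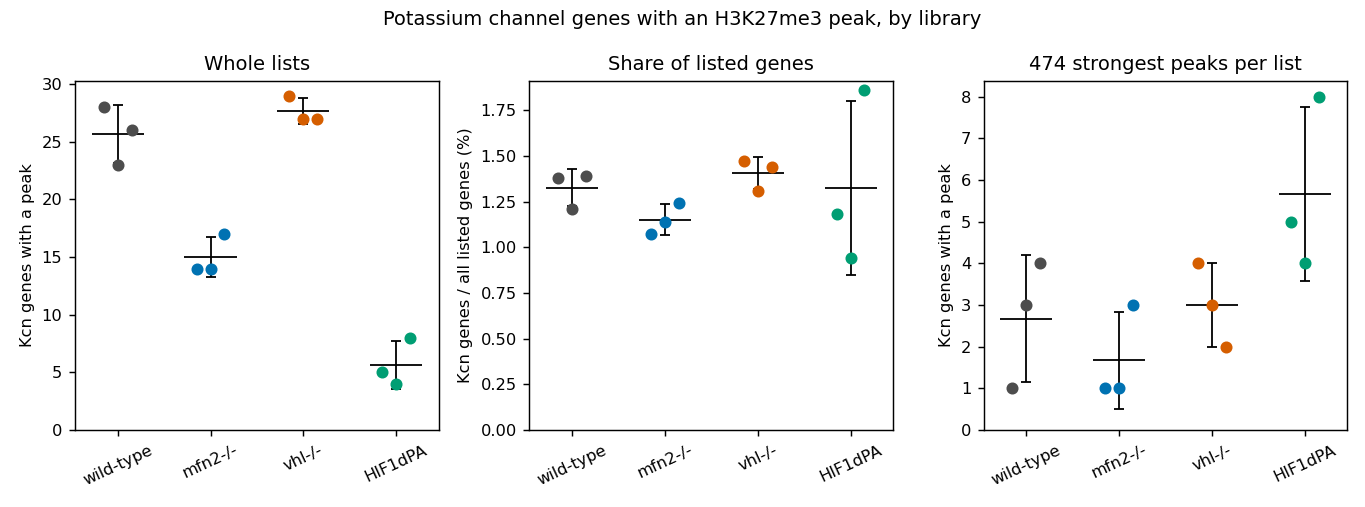
Kcn genes with a peak in each of the 12 H3K27me3 libraries by genotype, as a number over whole lists (left), as a percent of all listed genes (middle) and over the 474 strongest peaks of each list (right). Points are libraries, the line is the mean and the bar the SD (n = 3). HIF1dPA libraries hold 4 to 8 genes in the left and right panels, the lowest in the first and the highest in the last.

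The score of a peak is -10 times the log10 of its MACS p, so a higher score is a surer peak, and the lists begin at 50 (p of 1e-05). Kcn peaks were mostly weak. Of the 301, 32 at 20 genes reached 100 (10.6%, against 18.1% of other autosomal peaks), 26 of them at promoters. The highest rank of any Kcn peak within its list was 55. It belonged to a Kcng2 exon peak in the short list of HIF1dPA replicate 3, with a score of 75.4. The median score percentile of Kcn peaks within a list differed from that of other peaks by -3.69 points (SD 14.9 over 12 libraries, exact paired permutation p = 0.399, adjusted p = 0.513), lower in 8 of 12.

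Few genes recurred in most lists. Of the 54 genes, 13 (24.1%) were in 1 list, 14 in 2 or 3, 15 in 4 to 6 and 12 (22.2%) in 7 or more. Among all 5470 listed genes, 43.8% were in 1 list and 14.4% in 7 or more. No Kcn gene was in all 12 lists, as 38 other genes were. Joined by overlap, the Kcn peaks formed 154 regions, of which 103 (66.9%) were seen in 1 list and 17 in 5 or more. The same share for all autosomal regions is not given here, so whether Kcn regions recurred less than others is unknown. In a library of the first 3 genotypes, 27.8% to 52.8% of Kcn peaks overlapped a peak of another replicate, under any gene name. For other peaks this was 44.6% to 54.9%. None of the 17 Kcn peaks of HIF1dPA did so (10.7% to 12.7% for others).

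By genotype, 43 Kcn genes were listed in any wild-type library, 28 in any mfn2-/-, 40 in any vhl-/- and 16 in any HIF1dPA library. Genes present in all 3 replicates numbered 14 for vhl-/-, 9 for wild-type and 6 for mfn2-/-, and HIF1dPA had none. Kcnh3, Kcnk13 and Kcnmb4os2 were in every wild-type, mfn2-/- and vhl-/- list. Kcna5, Kcnc4, Kcne3, Kcnh3, Kcnh5, Kcnk18, Kcnq3 and Kcnt1 were found in at least 1 list of each genotype, and Kcna4 only in 1 HIF1dPA list.

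**Figure D2:**
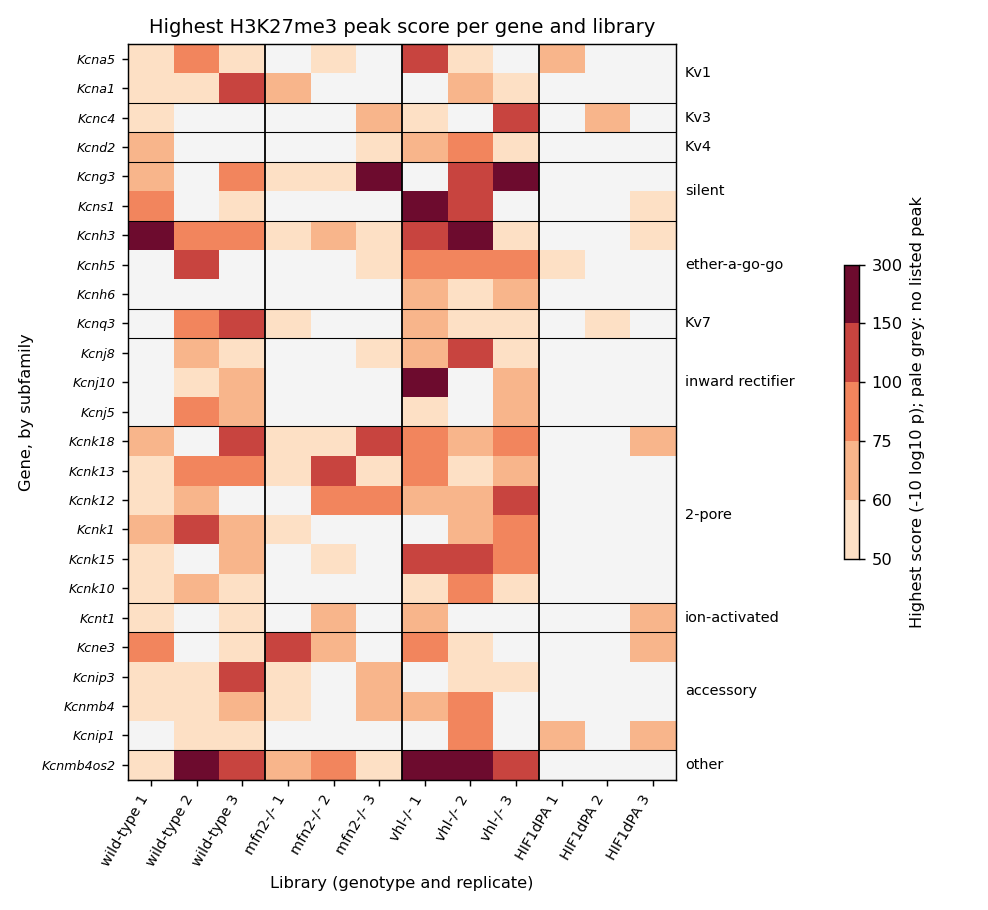
Highest H3K27me3 score of 25 of the 54 Kcn genes, those in the most lists and Kcnh6 (down, by subfamily), in each of the 12 libraries (across, by genotype), with the score in steps from 50 to 300 and pale grey where no peak was listed. Kcnh3 is filled in 10 libraries, Kcnmb4os2, Kcnk18 and Kcnk13 in 9 each, and the HIF1dPA columns are mostly empty.

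The 2-pore channels had the most marked genes of any subfamily, 10 of 14, and the most peaks, 78, 65.4% of them at promoters. A list held 4 to 8 of them in wild-type, 4 in each mfn2-/- library, 7 to 9 in vhl-/- and 0 or 1 in HIF1dPA. Kcnk13, a leak channel that volatile anesthetics inhibit, was marked in 9 lists, with best scores of 55.2, 88.6 and 93.9 in wild-type, 55.8, 110.1 and 53.9 in mfn2-/- and 79.5, 53.8 and 65.9 in vhl-/- libraries. It was absent from HIF1dPA lists, and the other 3 genotypes overlapped. Of its 14 peaks 13 were at the promoter, and 11 formed a region of 5358 bp over the start printed above (chr12:99962471-99967828) in 8 lists.

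Kcnk18, a leak channel known from sensory neurons, was also in 9 lists but never at its promoter. All 12 of its peaks lay in intergenic sequence 19.7 to 24 kb before its start, in a region (chr19:59194884-59196095) shared by 6 lists of all 4 genotypes and in stretches beside it. Best scores were 71.2 and 103.6 in 2 wild-type lists, 56.4, 50.7 and 110.8 in mfn2-/-, 75.8, 70.2 and 88.3 in vhl-/-, and 62.8 in 1 HIF1dPA list. A gene name in these lists can thus stand for a distant region.

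Kcnk12, the closest relative of Kcnk13, was in 7 lists, with scores of 56.3 and 72.2 in wild-type, 76.7 and 99.1 in mfn2-/- and 70.1, 60.1 and 107 in vhl-/- libraries. Kcnk1, a weak inward-rectifying leak channel, was in 6, with scores of 73.7, 109 and 60.3 in wild-type, 54.4 in 1 mfn2-/- and 66.6 and 82.6 in 2 vhl-/- lists. Its region over the beginning of its RefSeq span (chr8:125992878-125994990) recurred in all 3 wild-type lists. The highest Kcnk1 peak of vhl-/- replicate 2 lay 110 kb past the gene, inside Slc35f3. Kcnk15, which carries little current when expressed alone, reached its highest scores in vhl-/- (149, 111 and 77.4), against 58.5 and 62.8 in 2 wild-type lists and 50.0 in 1 mfn2-/- list, so its vhl-/- values were above all others.

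Kcnk10, a leak channel opened by stretch and lipids, was in all 3 wild-type (59.4, 66.2 and 55) and all 3 vhl-/- lists (52.2, 93.3 and 54.6) and in no mfn2-/- or HIF1dPA list. Its 8 peaks were spread over the gene. Wild-type replicates 1 and 3 had single peaks in intron 2 and intron 4 of 6, far from the start, and only replicate 2 had promoter peaks. The wild-type presence was therefore not the same region 3 times.

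The ether-a-go-go channels had 6 of 8 genes and 39 peaks, 74.4% at promoters. Kcnh3, a brain channel of this group, was the most recurrent gene of the set, in 10 lists. Its best scores were 200.2, 77.7 and 80.7 in wild-type, 51.3, 70.5 and 57.9 in mfn2-/-, 108, 197 and 55.2 in vhl-/- and 53.5 in 1 HIF1dPA library. The mfn2-/- values were all below the wild-type values, and vhl-/- spanned both. Its 16 peaks fell on both sides of the start, in a region before it (chr15:99220524-99223803, 9 lists) and one over and after it (chr15:99224183-99227701, 6 lists, of which 3 were wild-type and 1 was mfn2-/-).

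Kcnh5, a slowly activating brain channel, had a score of 124 in 1 wild-type, 51.4 in 1 mfn2-/-, 89.9, 83.4 and 78.3 in vhl-/- and 54.2 in 1 HIF1dPA list. A region in the first kilobases of the gene (chr12:75175141-75176402) held a peak in 5 of its 6 lists. Kcnh6, whose product carries an ether-a-go-go-related current, was in all 3 vhl-/- lists (60.8, 58.9 and 61.7) and in no list of another genotype. None of its peaks was at the promoter. They lay in exon 8 of 14 and in intron 9 of 13.

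Kcnq3, a subunit of the neuronal channels that muscarinic receptors close, scored 75.8 and 104 in wild-type, 53.4 in 1 mfn2-/-, 64.4, 51.3 and 57.6 in vhl-/- and 52.4 in 1 HIF1dPA list. The wild-type values were above the mfn2-/- and HIF1dPA values, and the vhl-/- values were below both wild-type values. Of its 7 peaks, 5 shared a region at the start (chr15:66284276-66286133) and the other 2 lay in intron 1 of 14.

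Silent subunits had 6 of 10 genes and 33 peaks, 84.8% at promoters. Kcng3, a modifier of other voltage-gated channels, was in 7 lists, with scores of 65.9 and 96.1 in wild-type, 53.6, 51.8 and 159.9 in mfn2-/- and 104 and 167 in vhl-/- libraries. Its region (chr17:83628958-83631421) follows the start whose window is printed above and held a peak in all 3 mfn2-/- lists, 1 wild-type list and 2 vhl-/- lists. Kcns1, a modifier of such channels in sensory neurons, scored 83.5 and 58.2 in 2 wild-type, 162 and 127 in 2 vhl-/- and 56.7 in 1 HIF1dPA list, with no mfn2-/- peak. Its region (chr2:164169178-164172583) covers the printed start.

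Kv1, Kv3 and Kv4 channels shape the action potential. Kv3 had 3 of 4 genes marked, with 13 of 14 peaks at promoters and Kv4 had 2 of 2. Kcnc4, the Kv3 channel known from fast muscle, scored 57.6 in 1 wild-type, 64.4 in 1 mfn2-/-, 57.6 and 110 in 2 vhl-/- and 61.3 in 1 HIF1dPA list. Kcnd2, a Kv4 channel of heart and neurons, scored 70.0 in 1 wild-type, 58.9 in 1 mfn2-/- and 67.5, 86.5 and 59.9 in all 3 vhl-/- lists. The wild-type peak, that of vhl-/- replicate 3 and 1 of 3 in vhl-/- replicate 1 were deep in intron 1 of 5, and the other 5 of its 8 peaks were near the start or before it.

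Kv1 is where names and places parted. Kcna5, a Kv1 channel of heart and vessels, was named in 7 lists, with scores of 54.4, 77.9 and 57.3 in wild-type, 56.4 in 1 mfn2-/-, 110.2 and 50.1 in vhl-/- and 61.3 in 1 HIF1dPA list. All 8 of its peaks lay 110 to 124 kb from its RefSeq span (chr6:126532551-126535555). The 6 promoter-class peaks had Kcna1, the neuronal Kv1 channel mutated in episodic ataxia, as the nearest coding gene, and 5 of them were within 1 kb of its span (chr6:126636463-126645801). Kcna1 itself was named in 6 lists, at 54.8, 53.3 and 109 in wild-type, 66.2 in 1 mfn2-/- and 72.3 and 57.8 in 2 vhl-/- lists. Both names thus describe one neighbourhood, and the promoter of Kcna5 in RefSeq was not marked.

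Kcna3, the Kv1 channel of lymphocytes, was chosen after its values were seen, because 12 promoter-class peaks in 9 lists lay at it (chr3:107034620-107039939, over the gene at chr3:107036162-107038129) under the name Gm27008. They occurred in 3 wild-type, 1 mfn2-/-, 3 vhl-/- and 2 HIF1dPA lists, with scores of 50.2 to 152. By name it has no peak and is not among the 54 genes. Assigning peaks by RefSeq position, within a gene or 3 kb of it, gave 52 Kcn genes, adding Kcna3, Kcna6 and Kcnj3 and dropping Kcna4, Kcna5, Kcnj1, Kcnk18 and Kcnn3. The lists then held 29, 23 and 25 genes in wild-type, 12, 13 and 16 in mfn2-/-, 27, 23 and 28 in vhl-/- and 3, 4 and 5 in HIF1dPA libraries (exact permutation p = 0.000649 across genotypes), in the same order of groups but for wild-type and vhl-/-, which were alike.

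Inward rectifiers had 7 of 15 genes and 27 peaks. Kcnj8, a pore of ATP-sensitive channels in vessels, scored 70.3 and 52.1 in 2 wild-type, 51.4 in 1 mfn2-/- and 64.8, 148 and 53.9 in vhl-/- libraries, all at the promoter. Kcnj10, the glial rectifier, scored 51.6 and 64.2 in wild-type and 155 and 70.0 in vhl-/- lists. Kcnj5, which forms the acetylcholine-gated channel of the atrium, scored 78.0 and 61.9 in wild-type and 56.3 and 64.7 in vhl-/- lists. Neither had a peak in any mfn2-/- or HIF1dPA list. The subfamily averaged 3.67 genes in vhl-/- lists, 2.33 in wild-type, 1 in mfn2-/- and 0.667 in HIF1dPA lists, and the wild-type lists ranged from 0 to 4.

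Among accessory genes, 7 of 16 were marked, with 37 peaks, of which 51.4% were at promoters. Kcnmb4, the neuronal regulatory subunit of the large calcium-activated channel, and Kcnmb4os2, a transcript from the opposite strand, overlap, and the annotation cannot divide peaks between them. Kcnmb4os2 held the highest scores of the whole set, at 50.0, 178 and 109 in wild-type, 60.9, 79.4 and 55.5 in mfn2-/- and 277, 256 and 142 in vhl-/- libraries, with none in HIF1dPA. The vhl-/- values were above all mfn2-/- values, and wild-type reached from the lowest to above some vhl-/- values. Kcnmb4 scored 52.2, 53.4 and 68.1 in wild-type, 51.1 and 74.6 in mfn2-/- and 61.8 and 95.9 in vhl-/- lists. One region (chr10:116471253-116473748) under both names was in 9 lists and covers the Kcnmb4os2 window and part of that of Kcnmb4.

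Kcne3, an accessory subunit of Kv channels in muscle and gut, was in 7 lists, at 78.2 and 53.5 in wild-type, 115 and 71.5 in mfn2-/-, 96.4 and 50.5 in vhl-/- and 62.0 in 1 HIF1dPA list. Of its 10 peaks 8 were intergenic, 14.2 to 16.7 kb past its start, and 6 of these formed a region (chr7:100193666-100195295) seen in 6 lists of all 4 genotypes. Promoter peaks occurred in wild-type replicates 1 and 3 only, and with 2 such peaks the difference was not tested. Kcnip3, a calcium sensor that joins Kv4 channels, was in 7 lists, at 58, 54.3 and 114 in wild-type, 54.6 and 61.6 in mfn2-/- and 56.9 and 57.8 in vhl-/- lists. Kcnip1, of the same group, had 5 peaks in 5 lists, all in introns, at 55.6 and 59.4 in wild-type, 81.6 in 1 vhl-/- and 60 and 69.7 in 2 HIF1dPA lists, none at the same place. Kcnt1, a sodium-activated channel, had promoter peaks at 56.1 and 56.1 in wild-type and at 61.0, 62.0 and 63.1 in 1 list of each mutant genotype.

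**Figure D3:**
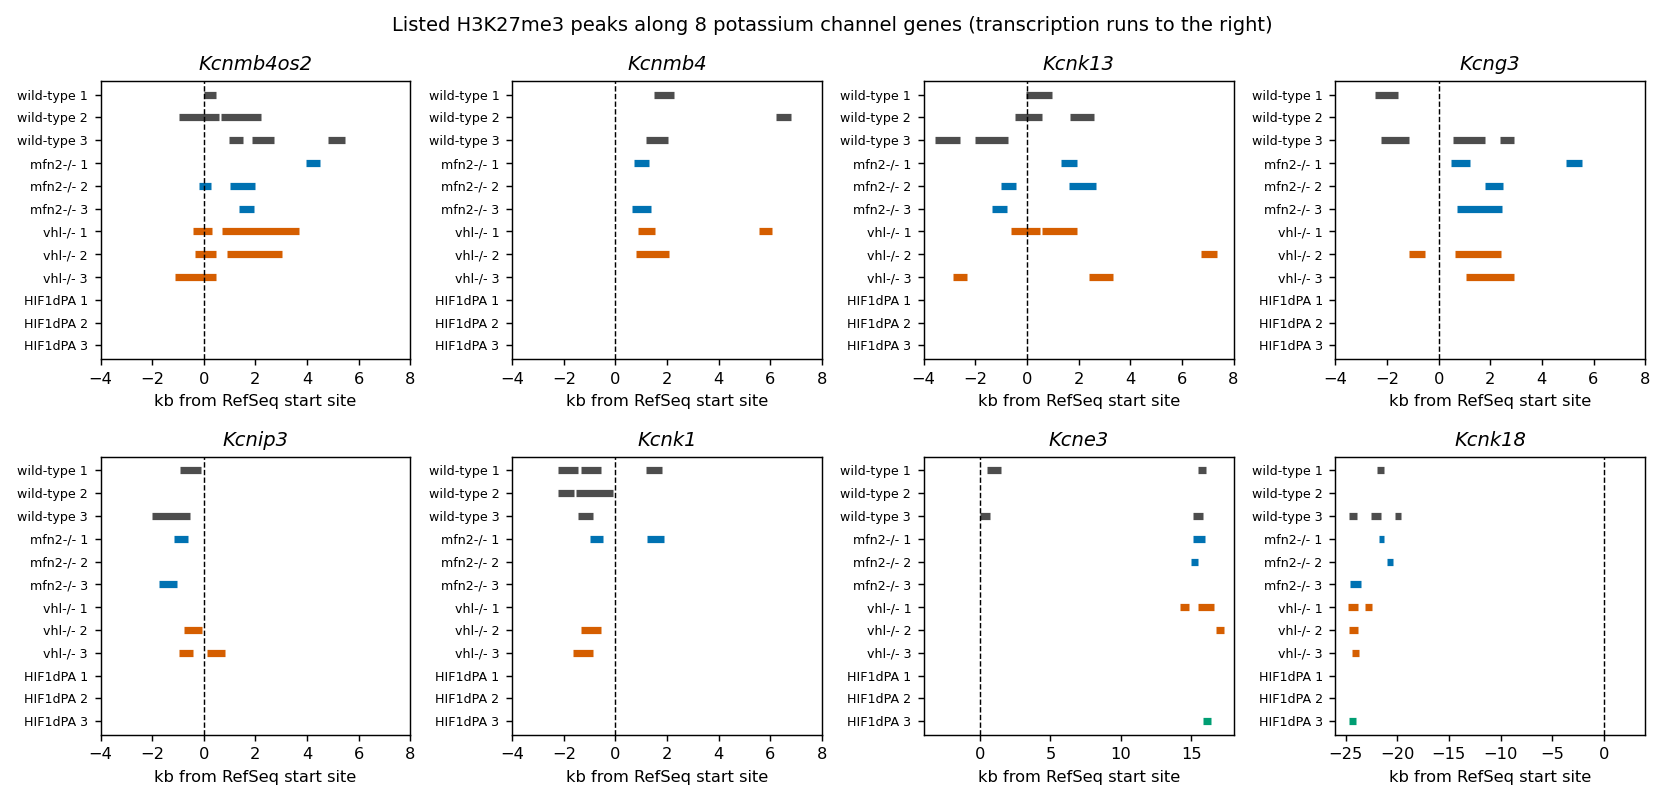
H3K27me3 peaks of 8 Kcn genes in each library, drawn as bars by distance in kb from the RefSeq start (positive in the direction of transcription) and coloured by genotype, without 3 peaks of Kcnip3 and Kcnk1 beyond the axes. Peaks of Kcnmb4os2, Kcnmb4, Kcnk13, Kcng3 and Kcnk1 cluster within a few kb of the start, those of Kcne3 lie mostly 14.2 to 16.7 kb after it and those of Kcnk18 19.7 to 24 kb before it.

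Most channels known for a part in skeletal muscle carried no listed peak. On a list of 14 such genes, 8 had none in any library. Among them were Kcna7 (voltage-gated), Kcnj2 and Kcnj12 (the rectifiers of the resting fiber), Kcnj11 (the pore of the muscle ATP-sensitive channel), Kcnma1 (the large calcium-activated channel) and Kcnk5 (a leak channel). Of the 6 with a peak, Kcnk13 was in 9 lists, Kcna5 (in name only, as above) and Kcne3 in 7, Kcnc4 in 5, and Kcna4 and Kcnn3 (the small calcium-activated channel of denervated fibers) in 1 each, at 51.0 in HIF1dPA and 97.5 in vhl-/-. The Kcna4 and Kcnn3 peaks were intergenic, 8.63 and 16.1 kb from their genes. The share of the list with an assigned peak, wherever it lay, was 6 of 14, against 54 of 94 for all Kcn genes, and was not tested.

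Kcn peaks lay at promoters more often than other peaks. Of 301, 209 (69.4%) were in the authors' promoter classes, within 3 kb of a start, against 50.2% of 30678 other peaks. Within 1 kb the shares were 45.5% and 28.4%, while 15.6% of Kcn peaks and 31.5% of others were intergenic and 11.3% and 13.6% were in introns. By library the promoter share of Kcn peaks was 70.7%, 65.8% and 69.4% in wild-type, 66.7%, 75% and 89.5% in mfn2-/-, 69.6%, 75.7% and 66.7% in vhl-/- and 20%, 75% and 37.5% in HIF1dPA. It exceeded the share of other peaks in 11 of 12 lists, by a mean of 17.3 points (SD 14.4, -17.7 to 37.1, exact paired permutation p = 0.00488, adjusted p = 0.0110). Without HIF1dPA the mean was 21.3 points (exact paired permutation p = 0.00391, the smallest that 9 lists allow). Among the 474 strongest peaks of each list it was 13.1 points (exact paired permutation p = 0.168). The lists share many of the same Kcn genes, so these paired p values describe repeatability over libraries, not variation over genes. Across genotypes the promoter share did not pass the threshold (exact permutation p = 0.129, adjusted p = 0.211), with 4 to 8 Kcn peaks in each HIF1dPA list.

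**Figure D4:**
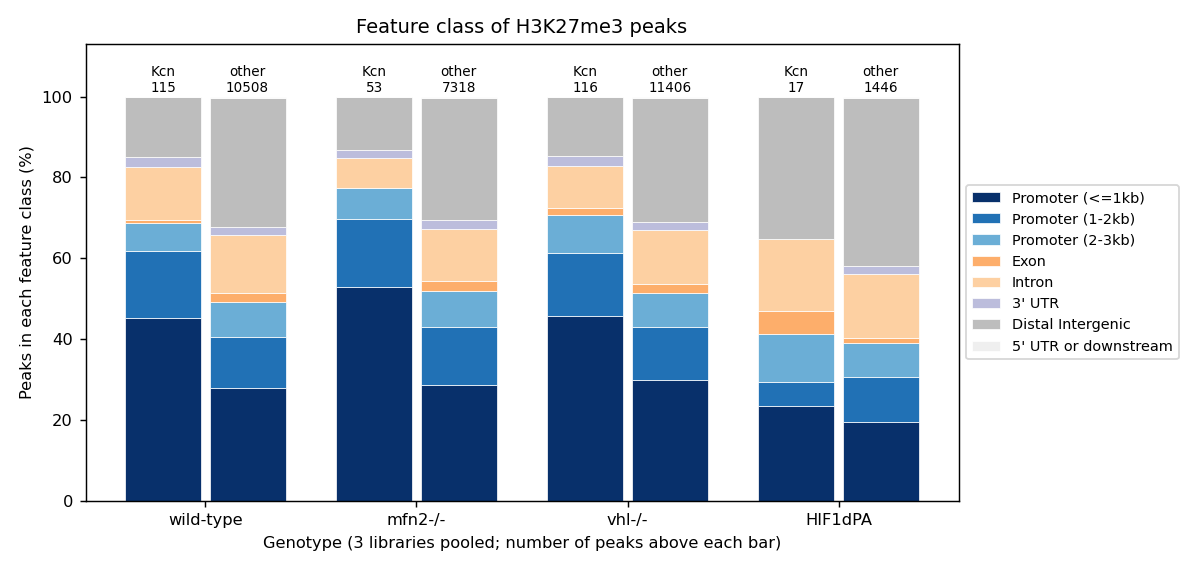
Percent of H3K27me3 peaks in each feature class by genotype, for Kcn peaks and for all other autosomal peaks, pooled over 3 libraries. Promoter classes take 68.7%, 77.4%, 70.7% and 41.2% of Kcn peaks in wild-type, mfn2-/-, vhl-/- and HIF1dPA, against 49.1%, 52.0%, 51.4% and 38.9% of other peaks, and the HIF1dPA Kcn column rests on 17 peaks.

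Promoter-class peaks seldom covered the start that defines a promoter window. Of 159 at genes with a RefSeq window, 25 lay over such a start, 70 wholly after it and 55 wholly before it within 3 kb, and 9 farther away. Other starts of a gene were not counted. The RefSeq span of Kcnk13, for example, begins at chr12:99963149, inside a wild-type replicate 3 peak (chr12:99962471-99963762) counted as before the start. Of the 47 intergenic Kcn peaks, 25 were within 10 kb of the gene and 2 were over 50 kb away, the farthest 272 kb (Kcnh5 in wild-type replicate 2), with a median of 9.31 kb. Kcn peaks were also shorter than others. Their median length in a list differed from that of other peaks by -45.6 bp on average (SD 48.2), shorter in 11 of 12 lists (exact paired permutation p = 0.000977, adjusted p = 0.00293). Among the 474 strongest peaks this was not past the threshold (exact paired permutation p = 0.327). As for the promoter share, the paired p values for length describe repeatability over libraries, not variation over genes.

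Counting genes listed in all 3 libraries of one genotype and in none of another gave few Kcn genes. Kcnk10 was the 1 of 48 in all wild-type and no mfn2-/- list, where 2.17% of 4239 genes were so, and no Kcn gene was the reverse, as were 0.212% of genes. Kcnh6 was the 1 of 50 in all vhl-/- and no wild-type list (0.788% of 4698 genes), and none was the reverse (0.532%). Against HIF1dPA, 7 of 46 (15.2%) were in all wild-type and no HIF1dPA list, beside 10.1% of 3827 genes. These were Kcna1, Kcnip3, Kcnk1, Kcnk10, Kcnk13, Kcnmb4 and Kcnmb4os2. None was the reverse (0.0261% of genes). The Kcn shares were thus close to the background, and none of these 3 counts above 0 kept a gene among the 474 strongest peaks.

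The covered length of each gene was also compared across the 4 genotypes with an exact permutation test. At an unadjusted p under 0.05 there were 5 of 54 Kcn genes (9.26%), against 10.9% of all 5470 (594 genes). After Benjamini-Hochberg adjustment over all genes none passed, with 0 of 5470 called, a lowest adjusted p of 0.0888 over all genes and 0.182 for a Kcn gene in the exact permutation test. Testing presence in place of length called 4 Kcn genes (7.41%) against 4.95% of all genes (271) unadjusted, and 0 adjusted. Kcnk10 covered a mean of 1307 bp in wild-type and 875 bp in vhl-/- and none elsewhere (exact permutation p = 0.00584), and Kcnh6 covered 924 bp in vhl-/- alone (exact permutation p = 0.0182). The others were Kcnh3 (means of 2714, 1019, 1896 and 196 bp, exact permutation p = 0.0234), Kcnmb4os2 (1866, 878, 2746 and 0 bp, exact permutation p = 0.0310) and Kcnk9, a further leak channel (152, 0, 970 and 0 bp, exact permutation p = 0.0182), in the order wild-type, mfn2-/-, vhl-/- and HIF1dPA. The Kcn share was thus slightly below the background by length and slightly above it by presence.

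Potassium channels were compared with other gene families, a comparison added after values were seen. Of 94 Kcn genes 57.4% had a peak in any list, beside 16 of 25 calcium channel genes (64%), 8 of 14 sodium channel genes (57.1%), 4 of 4 Hcn pacemaker channel genes, 0 of 8 Clcn chloride channel genes, 63 of 92 neurotransmitter receptor genes (68.5%) and 19.2% of 20573 other protein-coding genes. By list, Kcn genes were marked at 24.5% to 29.8% in wild-type, 14.9% to 18.1% in mfn2-/-, 28.7% to 30.9% in vhl-/- and 4.26% to 8.51% in HIF1dPA libraries, and other coding genes at 6.69% to 7.38%, 4.45% to 4.95%, 6.81% to 7.5% and 1.42% to 1.53%. The Kcn share was higher in 12 of 12 lists, by a mean of 14.6 points (SD 7.62, 2.72 to 23.5, exact paired permutation p = 0.000488, adjusted p = 0.00146 over 3 tests), which is the smallest p that 12 lists allow. Without HIF1dPA it was 17.9 points (exact paired permutation p = 0.00391). Every list scores the same genes, so the p values of these family comparisons describe repeatability over libraries, not variation over genes.

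Against calcium channels the Kcn share differed by -0.319 points on average (SD 4.83, -7.28 to 6.09, exact paired permutation p = 0.828, adjusted p = 0.828), higher in 6 of 12 lists. Against neurotransmitter receptors it differed by -0.247 points (SD 3.33, -5.53 to 3.08, exact paired permutation p = 0.793, adjusted p = 0.828), higher in 7 of 12. Neither direction was stable, and among the 474 strongest peaks Kcn genes were above calcium channels by 2.46 points (exact paired permutation p = 0.000488, unadjusted). By genotype, in the order above, mean shares were 27.3%, 16.0%, 29.4% and 6.03% for Kcn, 28%, 16%, 33.3% and 2.67% for calcium channels, and 26.8%, 17.4%, 29.3% and 6.16% for receptors. Smaller families did not all keep that order. Sodium channels had means of 11.9%, 9.52%, 21.4% and 9.52%, and the 4 Hcn genes 66.7%, 16.7%, 25% and 0%.

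**Figure D5:**
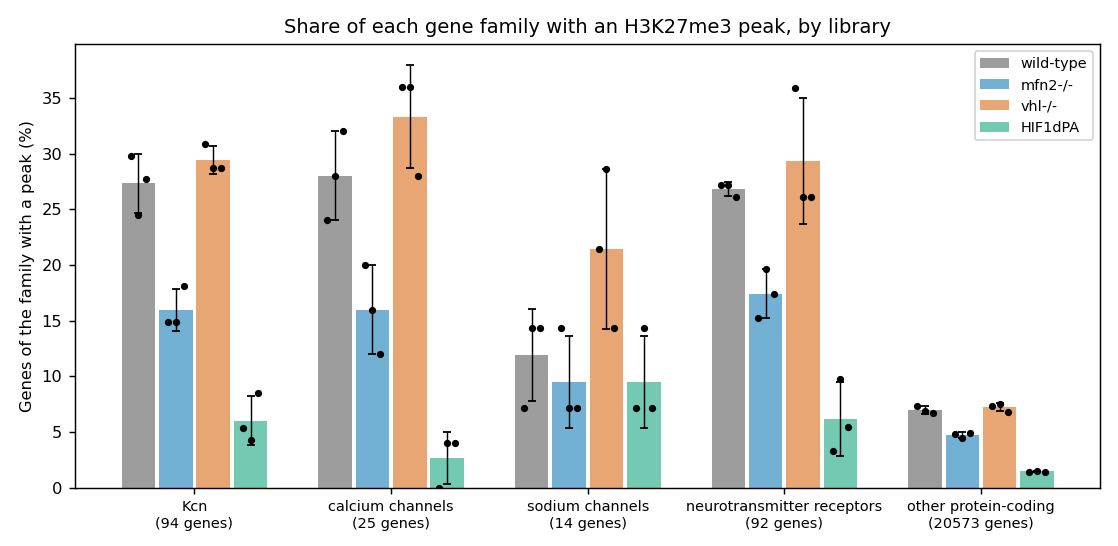
Percent of the genes of each family with an H3K27me3 peak, by genotype. Bars are means, error bars the SD (n = 3) and points single libraries. Kcn, calcium channel and receptor genes have like bars of 26.8% to 28% in wild-type, and other protein-coding genes reach at most 7.5% in any list. Hcn and chloride channels are not drawn.

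H3K9me3 lists named Kcn genes in other places. They held 52 peaks at 17 Kcn genes, of which 41 were intergenic, 11 in introns and none at a promoter. Wild-type lists held 17 of these peaks, mfn2-/- 16, vhl-/- 7 and HIF1dPA 12, and Kcnh5 alone held 16 of the 52. The lengths of the H3K9me3 lists were not set beside these counts, so the counts do not rank the genotypes. Both marks were named at 13 genes, and no Kcn peak of one mark overlapped a peak of the other in any list. Such overlap was rare for all genes. Omitting H3K27me3 peaks that overlapped an H3K9me3 peak of the same genotype left 30801 of 30979 autosomal peaks, and all 301 Kcn peaks. Of the genes named above, Kcnh5 was in all 12 H3K9me3 lists, Kcnk12 in 2, and Kcnip1, Kcna4 and Kcnk9 in 1 each.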

How the data were processed

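H3K27me3 and H3K9me3 were profiled by ChIP-seq in myofibers of 4 genotypes, with 3 replicates each, giving 24 peak lists. 1 input library was not used. The authors called peaks per library and deposited them with a score (-10 times the log10 of the MACS p, 50 or more), an annotated feature and the nearest gene. The submitters' processing notes name BWA 0.7.5, MACS (version not given in the sources used here), deepTools 3.5.0 and mm10. Peak calling decides what is listed, and no read totals are given, so intervals for depth could not be made.

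Rows of chromosomes 1 to 19 were taken, and Kcn genes by symbol. Members and lists were chosen with earlier results of these data known. Genes named with values were the 25 Kcn genes in the most lists, any in all 3 lists of a genotype and none of another, and 14 muscle channels. Some genes that this rule names are not reported here. Kcna3 and Kcnk9 were added after their values were seen. Tests were exact two-sided permutations over libraries (369600 arrangements of 4 groups, 220 of 3 against 9, 4096 sign flips), Benjamini-Hochberg adjusted, and were tested on simulated data. Gene positions and promoter windows came from RefSeq (GRCm38.p6), and all 54 genes matched an entry. Alternatives were a score of at least 100, equal list length (474), promoter-class peaks, 10 kb from a start, joining within 1000 bp, omitting peaks overlapping H3K9me3, a replicate block and each library left out. Omitting the HIF1dPA lists, RefSeq positions and the share of peaks were chosen after seeing the data. The analysis ran in Python 3.11.15 with pandas 2.3.3 and numpy 2.4.6, and figures were drawn with matplotlib 3.10.9.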

Additional observations from a re-analysis of the deposited data

Results flagged for a closer look

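The H3K9me3 lists, which the comparisons of H3K27me3 do not use, held 1 region assigned to Kcnh5 in all 12 libraries (chr12:74803747-74804989, mm10). Its score was 168, 157 and 147 in wild-type, 130.1, 91.8 and 103 in mfn2-/-, 119, 119.9 and 177 in vhl-/- and 119, 110.4 and 95.8 in HIF1dPA libraries. Every wild-type score was above every mfn2-/- and HIF1dPA score, and vhl-/- overlapped the other 3 groups in range. The region is intergenic, 92.2 kb from the Kcnh5 span (chr12:74897217-75177332), and no H3K27me3 peak overlapped it, although Kcnh5 had H3K27me3 peaks in 6 lists. It is given here because it recurred in data outside the comparisons, while no Kcn region of H3K27me3 was in more than 9 lists. An input library was not used here, and its part in this region was not tested.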

How the results depend on the processing

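Peaks are called to a threshold, depth is unknown and each peak is given a single gene name. A gene missing from a list therefore had no called peak assigned to it there, which does not show that the mark was absent. No list length can be set apart from genotype. The number of Kcn genes and their covered length kept their direction and their side of the threshold in every setting run that gave a value except equal list length, where the order of genotypes by gene number turned and the covered length gave an exact permutation p of 0.136. At equal list length the difference of mutants from wild-type became 0.778 genes and 0.133 points of share, that of HIF1dPA became 3 genes, the promoter difference was 13.1 points and the length difference -77.0 bp (neither past the threshold), and Kcn genes lay above calcium channels by 2.46 and above receptors by 0.287 points. The counts of genes in all wild-type and no mfn2-/-, in all vhl-/- and no wild-type, and in all wild-type and no HIF1dPA lists were then 0, 0 and 0, and likewise at a score of at least 100, where the calcium channel and receptor differences were 1.08 and 0.212 points. At that score no HIF1dPA list held a Kcn peak, so tests of Kcn peaks in every list gave no value. With promoter-class peaks alone the score percentile difference was -9.71 points (exact permutation p = 0.0117), the counts of wild-type genes absent from mfn2-/- and HIF1dPA were 0 and 3, and the receptor difference was 0.861 points. Within 10 kb of a start the same values were -10 points (exact permutation p = 0.00293), 0, 4 and 0.586 points. Counted by peaks in place of genes, the Kcn share across genotypes had an exact permutation p of 0.0143 without the HIF1dPA lists (0.155 with them). Without the HIF1dPA lists the percentile difference was -7.31 points (exact permutation p = 0.0391). The cause of these changes was not tested.

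Leaving out 1 library at a time gave p values of 0.0281 to 0.843 for the Kcn share (0.0281 without HIF1dPA replicate 3) and 0.00760 to 0.429 for the promoter share across genotypes (0.00760 without HIF1dPA replicate 2), all from exact permutation tests. The share of mutants minus wild-type ranged from -0.104 to 0.0103 points. Genes in all wild-type and no mfn2-/- lists numbered 1 to 5, the reverse 0 to 1, in all wild-type and no vhl-/- lists 0 to 1 and the reverse 1 to 3. The calcium channel difference ranged from -0.901 to 0.313 and the receptor difference from -0.549 to 0.233 points. Kcn genes at an unadjusted p under 0.05 numbered 3 to 10.

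Same-numbered libraries correlated at 0.289 for the gene number, 0.265 for the share, -0.122 for covered length and 0.0332 for the promoter share, and the labels do not say that a number marks a shared mouse or day, so the numbers were not taken to pair libraries. With the replicate number as a block, the promoter difference of 17.3 points, the length difference of -45.6 bp and the difference of 14.6 points from other coding genes each had an exact permutation p of 0.25, which is the smallest that 3 blocks allow, and the block changed no other call.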
